A study of Mus musculus with 4 samples.

Results

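The cells described here are a small population of KLF2 liver tumours with high UMI counts of Car3, Fxyd6 and Prss56, of which 237 were found in KLF2 replicate 1 and 295 in KLF2 replicate 2. A UMI is the tag of a single RNA molecule. A cell was a member when it had at least 300 genes and at most 25% of its UMIs from mitochondrial genes, and held at least 20 UMIs of Car3, Fxyd6 and Prss56 together per 10000 UMIs with all 3 genes detected. It also had to have fewer than 10 UMIs of the biliary keratins Krt7 and Krt19 together and fewer than 5 of the bone matrix genes Ibsp and Serpinf1 together per 10000, and 0 UMIs of Ptprc, Cdh5 and C1qa, which mark leukocytes, endothelium and macrophages. The 532 members stood among 25715 kept cells of the 3 libraries with a count matrix. The members were chosen by their measured UMI counts of these genes, so levels of Car3, Fxyd6 and Prss56 and every ratio of members to other cells are given as description, with no test.

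The KLF2 tumours came from male C57BL/6 mice given pT3-EF1α-KLF2 together with pT3-EF1α-AKT and with pT3-EF1α-c-MYC by hydrodynamic tail vein injection, a rapid injection that drives plasmids into liver cells. The vector tumours came from male C57BL/6 mice given the same c-MYC and AKT plasmids with the empty pT3 vector in place of pT3-EF1α-KLF2. SB100X, the transposase that inserts the pT3 cassettes into the genome, was injected in all mice. Tumours were taken 10 weeks after injection, at an age of 18 weeks, and the 2 tumour samples of a group came from different mice and were processed apart. All cassettes have the EF1α promoter, which is active in most cell types, and the mice keep their own liver, immune and vessel cells. For vector replicate 1 no matrix was analysed here, so the vector group has 1 library and no test between groups was possible.

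Car3 encodes carbonic anhydrase III, a cytosolic enzyme known mostly from muscle, fat and hepatocytes. Fxyd6 encodes a small membrane protein of the FXYD family, which adjusts the activity of the sodium pump, and Prss56 encodes a trypsin-like serine protease known from eye development. Mt3, a metallothionein best known from brain, binds zinc and copper, and Higd1a is an inner mitochondrial membrane protein known to be induced by low oxygen. Car3 lies at chr3:14863512-14872523 on the plus strand, Fxyd6 at chr9:45370185-45396159 on the plus strand and Prss56 at chr1:87183313-87188405 on the plus strand (GRCm38, GENCODE M21). Mt3 lies at chr8:94152607-94154146 on the plus strand and Higd1a at chr9:121848563-121858362 on the minus strand.

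The promoters of Fxyd6, Prss56 and Higd1a are shown because these genes mark the cells and Higd1a belongs to a group of genes with a known response to low oxygen. The sequences are RefSeq's for GRCm38.p6, from 250 bases before to 50 bases after the annotated start, at chr9:45369935-45370234 on the plus strand for Fxyd6, chr1:87183064-87183363 on the plus strand for Prss56 and chr9:121857747-121858046 on the minus strand for Higd1a. Capitals mark ACGTG, the core of the hypoxia response element, found on either strand, and CCACCC, a core bound by KLF factors, also searched on both strands.
Fxyd6: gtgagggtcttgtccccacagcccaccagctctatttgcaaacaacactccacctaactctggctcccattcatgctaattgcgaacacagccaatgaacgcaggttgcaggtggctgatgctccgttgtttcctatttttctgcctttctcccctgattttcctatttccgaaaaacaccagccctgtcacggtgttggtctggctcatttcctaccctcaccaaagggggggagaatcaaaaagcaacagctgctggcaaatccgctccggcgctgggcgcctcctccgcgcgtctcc
Prss56: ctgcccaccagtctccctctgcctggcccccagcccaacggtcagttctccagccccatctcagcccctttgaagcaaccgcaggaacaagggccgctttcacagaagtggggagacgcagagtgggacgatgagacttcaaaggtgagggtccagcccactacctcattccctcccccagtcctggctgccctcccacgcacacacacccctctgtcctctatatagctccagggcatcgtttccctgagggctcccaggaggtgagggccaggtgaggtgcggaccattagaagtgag
Higd1a: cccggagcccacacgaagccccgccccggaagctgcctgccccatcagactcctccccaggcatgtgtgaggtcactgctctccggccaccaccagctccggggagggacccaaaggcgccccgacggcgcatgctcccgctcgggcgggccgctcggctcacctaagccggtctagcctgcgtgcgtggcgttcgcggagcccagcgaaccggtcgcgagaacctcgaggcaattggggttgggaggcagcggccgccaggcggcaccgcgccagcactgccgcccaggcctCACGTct
ACGTG was in 19.62% of all 32851 promoters of this length and CCACCC in 31.48%. Of 14 leading genes (the 5 markers and the 9 genes named first among the higher ones below), 10 had a promoter in the table. ACGTG was in 4 of these 10 promoters, those of Gbx2, Higd1a, Spock2 and Tuba8, and CCACCC in 2, those of Bpifb5 and Gamt. A match describes the letters in this window and no binding was measured.

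Members made up 3.82% of the 6209 kept cells of KLF2 replicate 1 (exact binomial 95% interval 3.35 to 4.32) and 2.66% of the 11103 kept cells of KLF2 replicate 2 (2.37 to 2.97). In vector replicate 2 the rule picked 1 of 8403 kept cells, 0.0119% (0.000301 to 0.0663). That cell had 3 UMIs of Car3, 2 of Fxyd6 and 4 of Prss56 among 4296, and 0 of Higd1a. Intervals here and below cover counting error only, and the 2 KLF2 shares are the sole measure of the spread between mice. The median kept cell had 8912 and 5854 UMIs in KLF2 replicates 1 and 2 and 3191 UMIs in vector replicate 2, and the median share of mitochondrial UMIs was 0.223% and 0.345% in the KLF2 libraries and 11.9% in the vector library. The part of depth and mitochondrial share in the difference was not tested. Among the 3874 vector cells without Ptprc and Cdh5 UMIs, Car3 was seen in 480, Fxyd6 in 28 and Prss56 in 2.

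**Figure D1:**
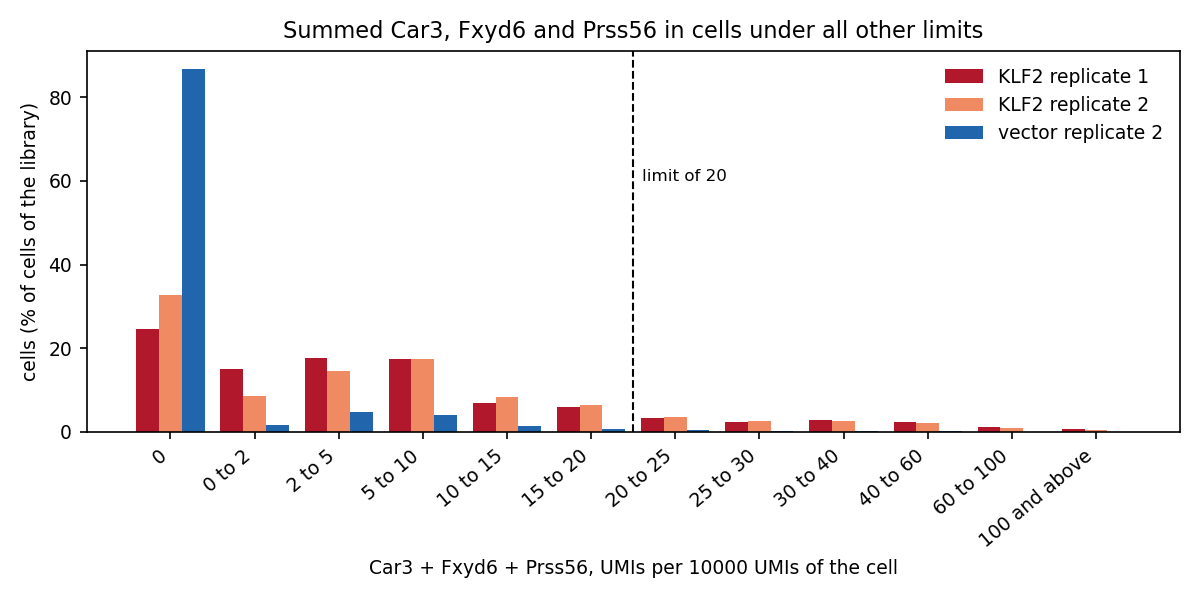
Percent of cells (y axis, of the cells under all other limits of the rule in the library) by their summed Car3, Fxyd6 and Prss56 UMIs per 10000 UMIs (x axis, in unequal steps). Bars are KLF2 replicate 1, KLF2 replicate 2 and vector replicate 2, and the dashed line is the limit of 20. The KLF2 bars go down in small steps across the limit, and 86.8% of the vector cells are at 0.

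The members were the upper end of a continuous range. In KLF2 replicate 1, 51 members had a sum between 20 and 25 and 68 cells that met every other limit had one between 15 and 20. In KLF2 replicate 2 these numbers were 65 and 102. The lowest sum above the limit was 20.01 and the highest below it 19.88 in KLF2 replicate 1, and in KLF2 replicate 2 they were 20.03 and 19.99. Of the cells with a sum of 20 or more, all 3 genes were detected in 316 of 602 in KLF2 replicate 1 and in 503 of 1012 in KLF2 replicate 2, and the limits on other cell types then took out 79 and 208, mostly through a C1qa UMI (61 and 169).

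Members were deeper than the cells they were set against. A member had a median of 17220 UMIs over 3961 genes in KLF2 replicate 1, and 16725 UMIs over 3591 genes in KLF2 replicate 2. The other cells without Ptprc and Cdh5 UMIs, called others below, numbered 5084 and 8695, with medians of 8424.5 UMIs and 2303 genes and of 5289 UMIs and 1654 genes. Among kept cells of at least 10000 UMIs the share of members was 5.67% in KLF2 replicate 1 and 5.19% in KLF2 replicate 2. After every cell was thinned to 2000 UMIs before the rule, the shares were 2.19% and 2.03%. The 2 KLF2 libraries had 550 barcode names in common, but the names are running numbers and do not give the barcode sequences.

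Every member held all 3 genes by rule, but single members differed widely in how much of each they had. Car3 had a median of 14.6 UMIs per 10000 in members of KLF2 replicate 1, with a range of 0.178 to 216.2, and of 15.5 in those of KLF2 replicate 2, with a range of 0.180 to 274.0. Fxyd6 had medians of 9.96 and 14.8, with highest values of 28.0 and 40.6, and Prss56 had medians of 7.02 and 3.94, with highest values of 66.5 and 53.6. Car3 thus had the widest range. Counts are not scaled by gene length, so between the 3 genes of a cell only the order of their counts is given. Car3 gave the most UMIs of the 3 in 130 of 237 members of KLF2 replicate 1 and 150 of 295 of KLF2 replicate 2, Fxyd6 in 51 and 113, and Prss56 in 56 and 32.

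Levels below are in CPM, the UMIs of a gene summed over a class of cells in a library, per 1000000 UMIs of the class. Ratios are log2((CPM of members + 10)/(CPM of others + 10)) within each library. Car3 was at 2261 and 2155 CPM in members of KLF2 replicates 1 and 2, and at 162 and 169 CPM in others. Cells with a Ptprc UMI, used here as a stand-in for leukocytes, had 156 and 178 CPM, a level close to that of others. This class needs only 1 Ptprc UMI, and 14 and 44 of its cells met the sum with all 3 genes detected. Others that met the rule's limits on other cell types, which leaves out cells over the sum that held a C1qa UMI, had 92.4 and 94.3 CPM, and cells with Krt7 and Krt19 had 79.0 and 29.2 CPM, so Car3 differed between the classes outside the members as well. In cells thinned to 2000 UMIs, Car3 was detected in 72.1% and 74.1% of members, 10.5% and 10.3% of others and 7.45% and 9.38% of cells with a Ptprc UMI, while the unthinned shares were 28.5% and 23.6% in others and 27.1% and 22.99% in cells with a Ptprc UMI, all members having it by rule. The thinned shares left out 11 and 9 members, 634 and 2047 others, and 30 and 193 cells with a Ptprc UMI, whose median depth was 10107 and 6432 UMIs.

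Fxyd6 and Prss56 were not confined to the members. Fxyd6 stood at 935 and 1475 CPM in members of KLF2 replicates 1 and 2, against 306 and 495 CPM in others and 163 and 316 CPM in cells with a Ptprc UMI. Prss56 stood at 1035 and 641 CPM in members, against 266 and 200 CPM in others and 135 and 116 CPM in cells with a Ptprc UMI. Others exceeded the cells with a Ptprc UMI for both genes in both libraries. The vector cells without Ptprc and Cdh5 UMIs had 101 CPM of Car3, 6.28 CPM of Fxyd6 and 1.71 CPM of Prss56.

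Mt3 and Higd1a, which the rule did not use, were also higher in members than in others as a whole. Mt3 was at 971.5 and 451.7 CPM in members of KLF2 replicates 1 and 2 and at 553.5 and 254.4 CPM in others, a log2 ratio of 0.80 in each. Higd1a was at 1401 and 1486 CPM in members and at 681.5 and 786.4 CPM in others, log2 ratios of 1.03 and 0.91. Cells with a sum of 15 to 20 that met every other limit were closer to members. They had 916 and 611 CPM of Mt3, above the members in KLF2 replicate 2, and 1201 and 1335 CPM of Higd1a. In thinned cells Higd1a was detected in 79.6% and 82.5% of members, 50.8% and 51.9% of others and 35.9% and 36.2% of cells with a Ptprc UMI. The unthinned shares of Higd1a were 97.0% and 96.6% in members, 74.1% and 67.6% in others, and 73.2% and 63.3% in cells with a Ptprc UMI. Mt3 was patchy among members: 59 of 237 and 111 of 295 had 0 UMIs of it, whereas Higd1a was at 0 in 7 and 10.

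**Figure D2:**
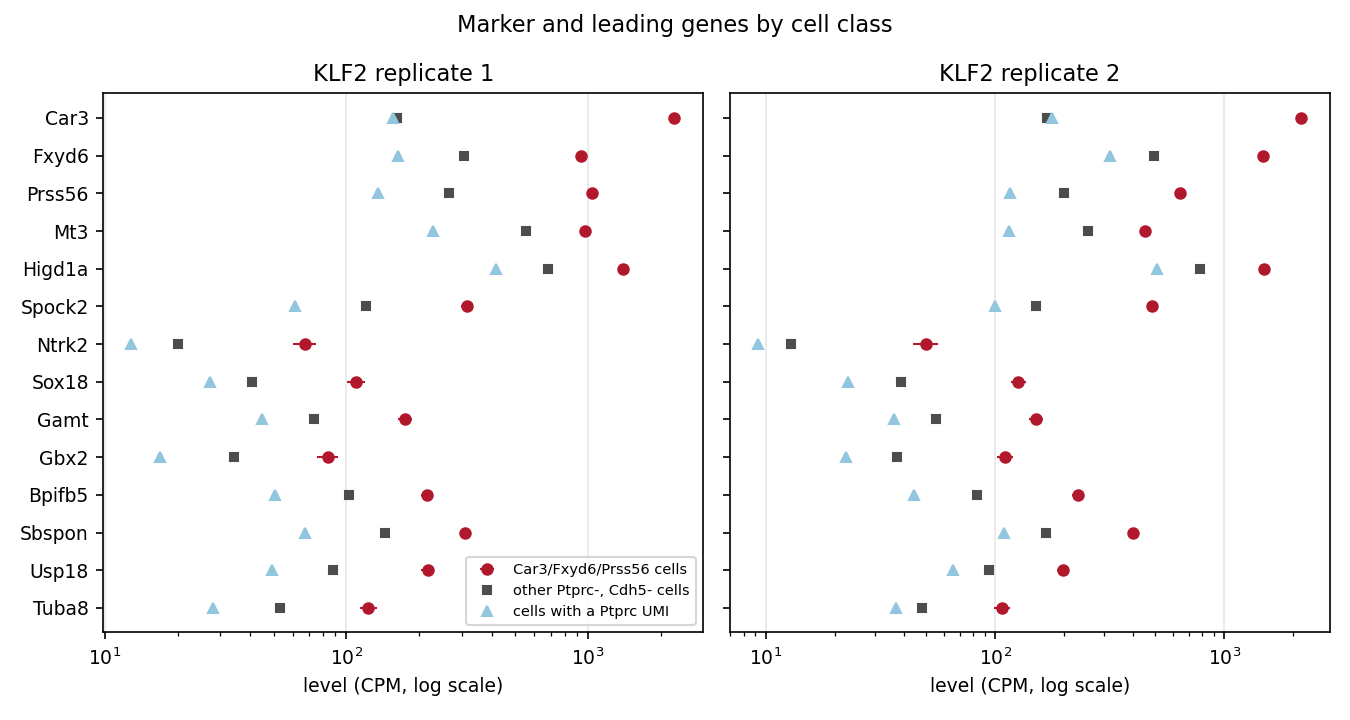
Level in CPM (x axis, log scale) of the 5 markers and 9 leading genes (y axis) in members (circles, with exact Poisson 95% intervals), in others (squares) and in cells with a Ptprc UMI (triangles), 1 panel per KLF2 library. Members lie to the right for all 14 genes in both libraries, and for Car3 the squares and triangles nearly coincide, at 162 against 156 CPM in KLF2 replicate 1.

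Beyond the rule's own genes few genes were much higher in members. Of 4513 genes with at least 30 CPM as a mean over both libraries in members or others, 10 were 2-fold or more higher in both libraries (0.222%) and 136 were 2-fold or more lower (3.01%); the 10 genes of the rule are left out of these counts. The median log2 ratio over all these genes was 0.06 in KLF2 replicate 1 and 0.10 in KLF2 replicate 2. The 10 higher genes were 76.9% of the 13 that passed in KLF2 replicate 1 (0.288% of all) and 25% of the 40 that passed in KLF2 replicate 2 (0.886%), and the 136 lower genes were 88.9% of 153 (3.39%) and 64.5% of 211 (4.68%). At 1.5-fold, 114 genes were higher (2.53%) and 261 lower (5.78%).

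The higher genes included genes of secreted proteins, a receptor, transcription factors and enzymes. Spock2, which encodes the matrix proteoglycan testican-2, was at 314.7 and 485.0 CPM in members of KLF2 replicates 1 and 2 and at 120.8 and 150.5 CPM in others, log2 ratios of 1.31 and 1.62. Sbspon, a gene for a secreted protein with a thrombospondin domain, was at 310.2 and 401.3 CPM in members and at 144.0 and 166.9 CPM in others. Ntrk2, the receptor of brain-derived neurotrophic factor, was at 67.1 and 49.8 CPM in members and at 20.2 and 12.8 CPM in others, log2 ratios of 1.35 and 1.39. Members were above others in each library for each of these genes.

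Both transcription factors among them are known from development. Sox18, known from blood and lymph vessels, was at 109.2 and 126.2 CPM in members and at 40.7 and 38.8 CPM in others, with 96.8 and 70.6 CPM in cells with a Cdh5 UMI. The 7 endothelial markers together were at 21.4 and 19.3 CPM in members and 22.6 and 25.7 CPM in others, with Cdh5 at 0 by rule. Gbx2, a homeobox factor known from the boundary of midbrain and hindbrain, was at 83.8 and 110.3 CPM in members and at 34.4 and 37.4 CPM in others. Among enzymes, Gamt, which makes creatine, was at 175.3 and 151.4 CPM in members and at 73.4 and 55.0 CPM in others, and Usp18, which removes the ubiquitin-like ISG15 from proteins, at 216.8 and 198.7 CPM in members and at 88.0 and 94.1 CPM in others. Bpifb5 was at 215.8 and 229.4 CPM in members and at 102.6 and 83.1 CPM in others, and the tubulin gene Tuba8 at 123.1 and 107.2 CPM in members and at 52.96 and 48.2 CPM in others. Each was above others in both libraries. The tenth gene, Ppp1r3g, a glycogen-targeting subunit of protein phosphatase 1, was at 41.9 and 35.0 CPM in members and at 11.6 and 9.44 CPM in others; it lay under the 50 CPM set for naming and is named here after its value was seen.

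By the mean CPM of both KLF2 libraries, all 10 were highest in members among the classes compared. Classes within others were those under all the rule's limits on other cell types, cells with 10 or more Krt7 and Krt19 UMIs per 10000 (458 and 1160 cells), and cells with 5 or more Ibsp and Serpinf1 UMIs per 10000 (252 and 148). The remaining classes were cells with a Ptprc UMI and cells with a Cdh5 UMI. The 10 genes were picked as higher in members than in others, so this order follows in part from that choice. Against the 3436 and 4968 others under the same limits, 6 genes were 2-fold or more higher (0.132%) and 82 lower (1.81%) of 4535. Gamt, Ntrk2, Ppp1r3g, Sox18 and Spock2 were among those 6, and the same 5 of the 10 passed when members and others were both restricted to cells of at least 10000 UMIs. Tuba8 and Usp18 had log2 ratios of 0.86 and 0.89 in KLF2 replicate 2 among those deep cells.

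**Figure D3:**
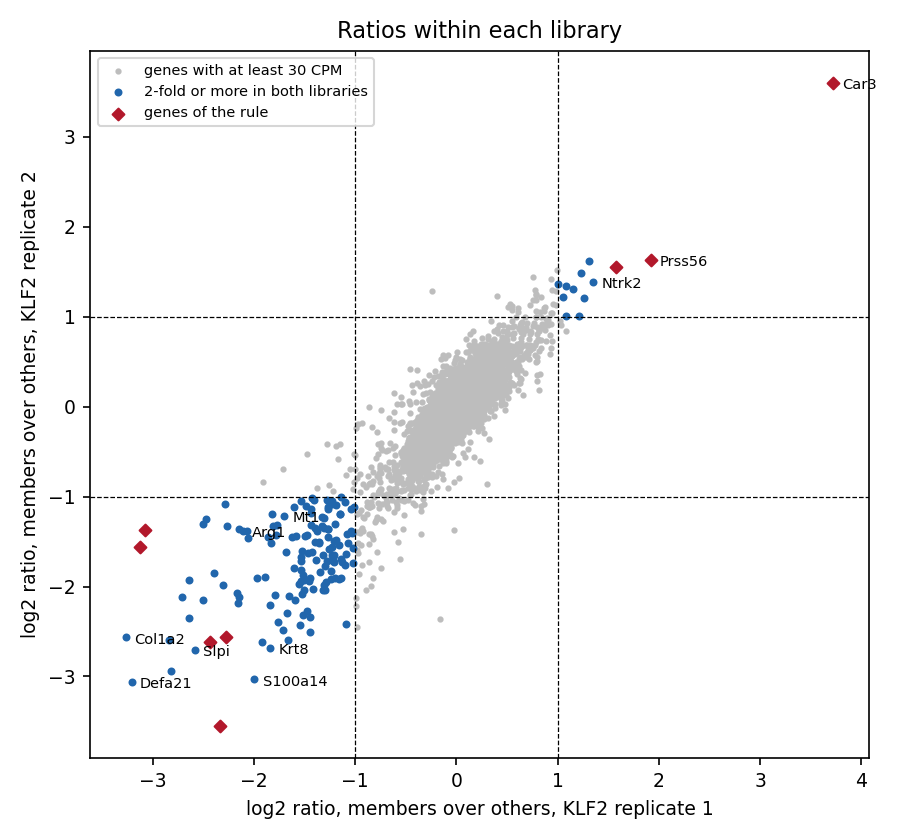
Log2 ratio of members over others in KLF2 replicate 1 (x axis) and KLF2 replicate 2 (y axis) for each gene with at least 30 CPM. Blue points are the 10 higher and 136 lower genes, red diamonds the genes of the rule, and dashed lines mark 2-fold. Car3 stands alone at the upper right, with log2 ratios of 3.72 and 3.60, and more points lie beyond the lower than the upper lines.

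The genes lower in members mostly had their highest levels in the cells with keratin, bone matrix or leukocyte genes. Of the 136, 71 had their highest level in the Krt7 and Krt19 cells, 36 in the Ibsp and Serpinf1 cells, 24 in cells with a Ptprc UMI, 4 in cells with a Cdh5 UMI and 1 in the others under the same limits. The rule itself leaves such cells out of members while others hold them. Among 11 measured biliary genes 7 were lower and 0 higher, with medians of −1.48 and −2.04, where over all genes 3.01% were lower and 0.222% higher. Against others under the same limits the biliary medians were −0.78 and −1.57. Krt8, a keratin of simple epithelia, was at 62.0 and 80.9 CPM in members, 248 and 572 CPM in others and 1462 and 1607 CPM in Krt7 and Krt19 cells. The cell adhesion gene Epcam was at 20.8 and 30.3 CPM in members and at 100.3 and 176.5 CPM in others. S100a14, an epithelial calcium-binding protein gene, was at 23.4 and 29.2 CPM in members and at 123.1 and 310.4 CPM in others.

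Genes of the bone matrix were lower too. Of 7 measured bone matrix genes 5 were lower and 0 higher, with medians of −2.50 and −2.04, where over all genes 3.01% were lower and 0.222% higher. Against others under the same limits, which leaves out the Ibsp and Serpinf1 cells, the bone matrix medians were −1.01 and −1.79. Col1a2, a chain of type I collagen, was at 34.6 and 13.1 CPM in members, 418.5 and 126.5 CPM in others and 2750 and 3550 CPM in Ibsp and Serpinf1 cells, and Sparc, a matrix protein that binds collagen, was at 178 and 63.1 CPM in members and at 1055 and 314.5 CPM in others. Slpi, an inhibitor of leukocyte proteases, was at 23.8 and 22.9 CPM in members, 192.5 and 204.4 CPM in others 1272 and 772 CPM in cells with a Ptprc UMI and 1527 and 1222 CPM in Ibsp and Serpinf1 cells. Apoe, the lipid carrier of macrophages and hepatocytes, was at 120.4 and 106.7 CPM in members and at 371 and 617 CPM in others. The 8 macrophage markers summed to 64.5 and 87.2 CPM in members, 232.5 and 424.5 CPM in others, and 7269 and 6167 CPM in cells with a Ptprc UMI. C1qa, 1 of the 8, was at 0 in members by rule but not in others. The 3 measured macrophage markers outside the rule had median log2 ratios of −1.26 and −1.58. Against others under the same limits these medians were −0.25 and −0.455. How much of each lower ratio comes from fewer other cells or free RNA among members was not tested, and 71 of the 136 were also 2-fold lower against the others under the same limits.

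Defa21 and Defa22, genes of the alpha-defensin family of antimicrobial peptides, were low in members and present in others that met the same limits. Defa21 was at 3.26 and 11.8 CPM in members and at 112.4 and 171.7 CPM in others, log2 ratios of −3.21 and −3.06, and others under the same limits had 168.1 and 135.2 CPM. The Krt7 and Krt19 cells had 67.9 and 315.5 CPM of it. Defa22 was at 3.66 and 9.66 CPM in members and at 86.4 and 141.1 CPM in others. The 2 genes are near-identical copies, and how reads were shared between them is not given in the sources used here.

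The hypoxia list was not higher as a whole although it holds Mt3 and Higd1a. Of its 17 measured genes 0 were 2-fold higher or lower in both libraries, where over all genes 0.222% were higher and 3.01% lower. Ratios were above 0 in both libraries for 4, among them Mt3 and Higd1a, and below 0 for 10. Over all 4513 genes these numbers were 2363 and 1371. The medians were −0.13 and −0.14, where all genes had 0.06 and 0.10. Against others under the same limits they were −0.03 and −0.10, where all genes had 0.08 and 0.13. Ndrg1, a hypoxia-induced gene, was at 89.1 and 47.6 CPM in members and at 128 and 108 CPM in others, and Slc2a1, the glucose carrier GLUT1, at 29.1 and 23.3 CPM in members and at 43.0 and 52.3 CPM in others. Both were lower in members in each library. The glycolysis list had medians of 0.12 and 0.24, with 0 of 16 genes past 2-fold. Hk2, a hexokinase, was at 105.6 and 68.8 CPM in members against 167.1 and 197.0 CPM in others, while Aldoc, an aldolase, was at 120.8 and 126.0 CPM in members against 75.1 and 84.3 CPM in others.

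Metallothioneins split by gene. Mt1, the common metallothionein of liver, was at 155.6 and 101.7 CPM in members and at 527.4 and 249.9 CPM in others, log2 ratios of −1.70 and −1.22, opposite in sign to Mt3. Mt2 was at 56.4 and 45.7 CPM in members and at 206.9 and 80.2 CPM in others, and Mt4 at 57.2 and 15.7 CPM in members and at 87.0 and 55.8 CPM in others. Cells with a Ptprc UMI held 1016 and 419 CPM of Mt1. Across the metal handling list 1 of 8 genes was lower, Mt1, and 0 were higher.

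The relatives of Car3 and Fxyd6 did not share one direction. Of the other carbonic anhydrase genes only Car2 was measured, at 32.3 and 34.5 CPM in members and 21.7 and 26.4 CPM in others. Fxyd1, phospholemman, was at 105.6 and 172.4 CPM in members and at 58.3 and 57.2 CPM in others, log2 ratios of 0.76 and 1.44. Fxyd3, a family member of epithelia, was at 8.34 and 8.90 CPM in members and at 47.6 and 71.2 CPM in others, and was the single gene of 6 in its list that passed 2-fold. Fxyd5 was at 32.8 and 24.1 CPM in members and at 58.8 and 56.5 CPM in others, with 556 and 332 CPM in cells with a Ptprc UMI.

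The 11 measured mitochondrially encoded genes were all lower in members in both libraries, 10 of them 2-fold or more, with medians of −1.41 and −1.14. These ratios are of UMIs summed over a class of cells, and the mitochondrial share of the median cell, given below, differed less. The oxidase subunit gene mt-Co1 was at 455 and 981.7 CPM in members and at 1574 and 2458 CPM in others. Of 27 nuclear genes of the respiratory chain, 23 had ratios above 0 in both libraries, as had 2363 of all 4513 genes, 0 passed 2-fold, and the medians were 0.11 and 0.15, near those of all genes. Measures of RNA quality differed as well: the median share of mitochondrial UMIs was 0.168% and 0.227% in members against 0.225% and 0.345% in others, and Gm42418, a transcript that overlaps ribosomal RNA, took 7.97% and 10.3% of UMIs in members against 12.3% and 15.7% in others. The part of these in the ratios was not tested beyond the alternatives that follow. A total without Gm42418, mitochondrial and haemoglobin genes gave 6 higher and 173 lower genes. It brought the median over all genes to −0.02 and −0.01. With cells of at most 10% mitochondrial UMIs only, 7 genes were higher and 126 lower.

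Members showed little of the hepatocyte programme. The 7 hepatocyte markers, Alb, Apoa1, Ttr, Hnf4a, Fabp1, Serpina1a and Trf, summed to 10.4 and 7.39 CPM in members of KLF2 replicates 1 and 2, against 46.2 and 47.7 CPM in others and 1607 CPM in vector cells without Ptprc and Cdh5 UMIs. Serpina1a was at 0 in members of both libraries and Hnf4a, a master factor of hepatocytes, in those of KLF2 replicate 1. Of the hepatocyte transcription factors, Prox1, needed for liver growth, was at 430.8 and 565.1 CPM in members and 259.3 and 372.8 CPM in others, and Foxa2 at 73.0 and 78.2 CPM in members and 48.9 and 57.7 CPM in others. Glul, glutamine synthetase of perivenous hepatocytes, was at 966 and 817 CPM in members and 569 and 515 CPM in others. In the lists of hepatocyte transcription factors and of urea cycle and amino acid enzymes, 0 of 7 measured genes were 2-fold higher and 2 were lower. Cebpb, a factor of the acute response, was at 15.3 and 14.6 CPM in members and 47.7 and 42.6 CPM in others, and Arg1, the arginase of the urea cycle and of some macrophages, at 14.04 and 7.20 CPM in members, 93.5 and 34.7 CPM in others and 2488 and 450 CPM in cells with a Ptprc UMI. The counts do not show whether the members are tumour cells or hepatocyte-derived, so they are named here by the 3 genes that chose them.

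Markers of other cell types known for Car3 or Prss56 were at or near 0. Adipoq, Plin1, Cfd, Lep and Cidec, the 5 adipocyte markers other than Car3, were at 0 in members of both libraries. Of the 7 skeletal muscle markers other than Car3, 5 were at 0 in KLF2 replicate 1 and 6 in KLF2 replicate 2. The glial factor Sox10 was at 0 in members of both libraries. Mesothelial markers summed to 2.03 and 1.33 CPM in members against 45.0 and 8.75 CPM in others, neuroendocrine markers to 1.63 and 0.758 CPM in members against 7.97 and 3.84 CPM in others, and T and NK cell markers to 6.10 and 9.85 CPM in members against 14.6 and 56.0 CPM in others. Scrublet called 1 and 0 doublets, too few to use, and 4 and 7 members (1.69% and 2.37%) were among the 5% of cells with the highest scores, against 4.17% and 4.36% of others.

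**Figure D4:**
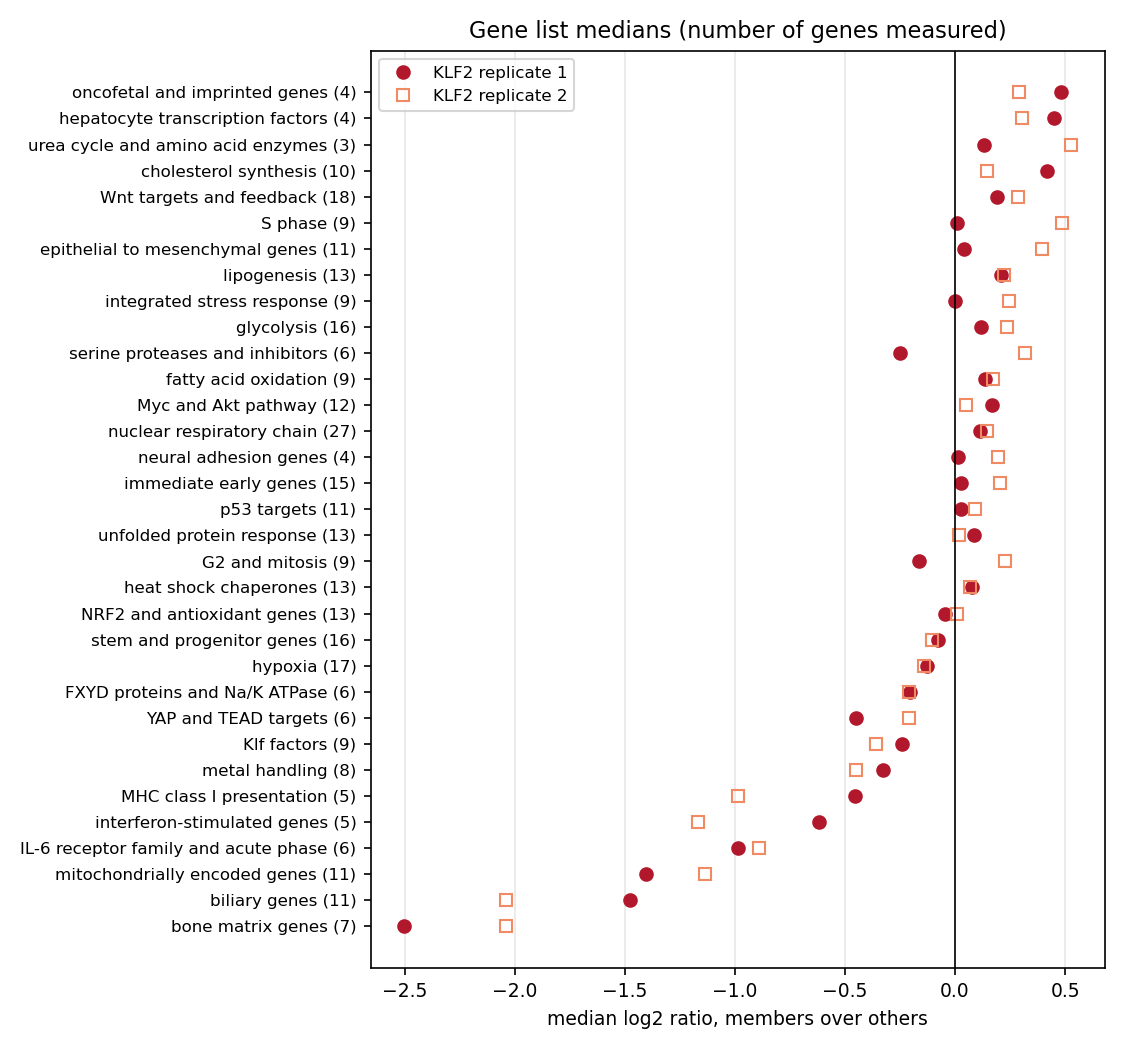
Median log2 ratio of members over others (x axis) for each pathway list with at least 3 measured genes (y axis, number measured in brackets), in KLF2 replicate 1 (filled circles) and KLF2 replicate 2 (open squares). Bone matrix and biliary genes lie lowest in both libraries, and the hypoxia list lies at −0.13 and −0.14.

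The genes on the injected plasmids were counted in members too. Klf2, a zinc finger factor of quiescent T cells and endothelium, was at 474.2 and 692.3 CPM in members and at 320.2 and 371.6 CPM in others, log2 ratios of 0.55 and 0.88. Cells with a Ptprc UMI had 405 and 492 CPM, and the vector cells without Ptprc and Cdh5 UMIs had 427 CPM. In thinned cells Klf2 was detected in 54.9% and 58.0% of members, 35.1% and 38.0% of others and 44.8% and 46.5% of cells with a Ptprc UMI, and unthinned in 90.3% and 90.5% of members, 65.2% and 59.7% of others and 74.1% and 70.4% of cells with a Ptprc UMI. Myc was at 832 and 580 CPM in members and 660 and 456 CPM in others, and Akt1 at 1564 and 905 CPM in members and 1225 and 695 CPM in others. Whether transcripts of the plasmids are counted under these symbols is not given in the sources used here.

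No Wnt target or mesenchymal gene was 2-fold higher in both libraries. Some genes of the IL-6 family and interferon lists passed, mostly lower, where over all genes 0.222% were higher and 3.01% lower. Of 18 Wnt target and feedback genes 0 passed 2-fold, with medians of 0.19 and 0.28, and of 0.02 and 0.15 against others under the same limits, where all genes had 0.08 and 0.13; Notum, a secreted Wnt inhibitor, was at 505.5 and 664.4 CPM in members and 324.8 and 359.4 CPM in others, and Bmp4, a signalling protein, at 421.5 and 439.7 CPM in members and 280.2 and 244.9 CPM in others. Vim, the mesenchymal filament vimentin, was at 1489 and 1185 CPM in members and 1015 and 541 CPM in others, while the epithelial cadherin Cdh1 was at 10.98 and 15.7 CPM in members and 49.96 and 84.4 CPM in others and fibronectin, Fn1, at 41.1 and 28.4 CPM in members and 154.5 and 107.6 CPM in others. All 5 measured MHC class I genes had ratios below 0 in both libraries, as had 1371 of all 4513 genes, with 0 of them 2-fold lower and medians of −0.46 and −0.99, or −0.09 and −0.73 against others under the same limits, and 3 of 6 IL-6 family and acute phase genes were lower, Lcn2, Saa3 and Socs3. Of 5 interferon-stimulated genes 1 was higher, Usp18, and 1 lower, Ifitm3, a membrane protein that blocks virus entry, at 148.1 and 154.2 CPM in members and 507.8 and 904.8 CPM in others. Il31ra, an IL-6 family receptor, was at 257.9 and 327.6 CPM in members and 440.1 and 551.1 CPM in others. In thinned cells it was detected in 42.5% and 46.9% of members, 57.5% and 63.9% of others and 49.3% and 58.0% of cells with a Ptprc UMI. The part of free RNA in these shares was not tested. The unthinned shares were 89.5% and 90.5% in members, 86.25% and 84.4% in others and 86.2% and 87.0% in cells with a Ptprc UMI.

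No gene of the lipid or cell cycle lists passed 2-fold in both libraries, where over all genes 0.222% were higher and 3.01% lower. All 10 measured cholesterol synthesis genes had ratios above 0 in both, as had 2363 of all 4513 genes, with medians of 0.42 and 0.15. At least 2 UMIs of S phase genes were found in 19.9% and 26.2% of thinned members against 18.5% and 13.7% of others and 15.3% and 14.4% of cells with a Ptprc UMI, and of G2 and mitosis genes in 14.6% and 11.5% of members against 19.6% and 12.9% of others and 13.9% and 12.5% of cells with a Ptprc UMI. Unthinned, S phase shares were 76.4% and 77.6% in members against 56.6% and 42.5% in others and 56.5% and 45.7% in cells with a Ptprc UMI, and G2 and mitosis shares 62.9% and 44.1% in members against 51.8% and 33.7% in others and 45.3% and 35.5% in cells with a Ptprc UMI.

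Levels of several genes moved with the sum of Car3, Fxyd6 and Prss56, not only past the limit of 20. The cells compared met the limits on other cell types, whether or not all 3 genes were detected. At a sum of 20 or more, 220 of them in KLF2 replicate 1 and 333 in KLF2 replicate 2 lacked at least 1 of the 3 genes. Those cells are not members and count among the others. The cells were put in bands of the sum, of under 5, 5 to 10, 10 to 20, 20 to 40 and 40 or more per 10000, with 2105, 640, 471, 313 and 144 cells in KLF2 replicate 1 and 2945, 914, 776, 449 and 179 in KLF2 replicate 2. Spock2 stood at 81.0, 136.5, 194.8, 274.4 and 397.5 CPM in KLF2 replicate 1 and at 77.7, 176.7, 252.9, 352.9 and 587.8 CPM in KLF2 replicate 2, higher in each band than in the one before. Klf2 likewise stood at 241.4, 390.1, 469.3, 495.7 and 551.6 CPM in KLF2 replicate 1 and at 268.2, 387.6, 487.6, 644.4 and 829.2 CPM in KLF2 replicate 2. Depth differed between bands, with median UMIs of 6478 and 11584.5 in the lowest and highest of KLF2 replicate 1 and of 3395 and 10136 in those of KLF2 replicate 2, and its part in these levels was not tested.

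The bands were cut on Car3, Fxyd6 and Prss56, so the levels of these genes across them follow from the cut and are given as description. Car3 stood at 23.4, 52.4, 162.4, 619.2 and 4339 CPM across the bands of KLF2 replicate 1 and at 19.6, 57.4, 120.6, 449.8 and 4115 CPM across those of KLF2 replicate 2. Fxyd6 reached 1102 CPM in the 20 to 40 band and 1079 CPM in the highest of KLF2 replicate 1, and 1593 and 1662 CPM in those of KLF2 replicate 2. Mt3, unlike Spock2 and Klf2, was highest in the 20 to 40 band, at 1571 CPM against 1116 CPM in the highest band of KLF2 replicate 1 and at 534.5 against 354.9 CPM in that of KLF2 replicate 2. Defa21 was at 298.0 CPM in the lowest band and at 23.7 CPM already in the 5 to 10 band of KLF2 replicate 1, and at 250.5 and 28.1 CPM in those of KLF2 replicate 2.

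**Figure D5:**
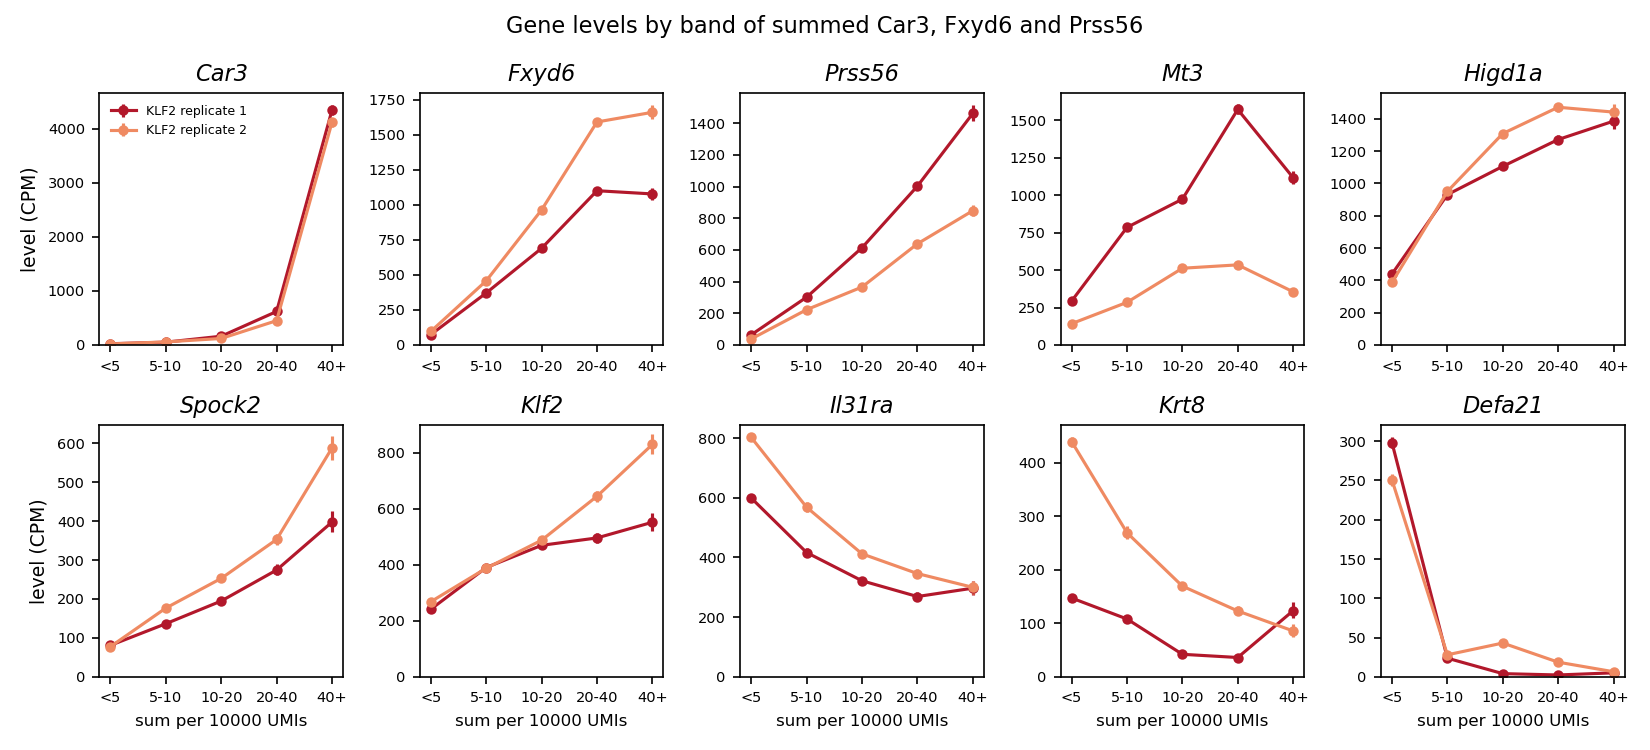
Level in CPM (y axis, each panel its own scale from 0) of 10 genes by band of summed Car3, Fxyd6 and Prss56 per 10000 UMIs (x axis), in KLF2 replicate 1 and KLF2 replicate 2, with exact Poisson 95% intervals. Spock2 and Klf2 step up in each band, Car3 reaches 4339 and 4115 CPM in the highest, and Defa21 lies mostly in the lowest.

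Members of the 2 KLF2 libraries differed in few genes. Of 4012 genes with at least 30 CPM, 11 were 2-fold or more higher (0.274%) and 26 lower (0.648%) in members of KLF2 replicate 2 than in those of KLF2 replicate 1. Others differed likewise for 5 of the 11 and 8 of the 26. The early response gene Egr1 was at 1451 CPM in members of KLF2 replicate 2 and at 566 CPM in those of KLF2 replicate 1, with 989 and 445 CPM in others. Aldh1a1, an enzyme of retinoic acid synthesis, was at 76.5 CPM in members of KLF2 replicate 2 and at 453 CPM in those of KLF2 replicate 1, and others showed the same gap, with 80.8 and 479 CPM. With 1 library on each side no test of these differences is possible.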

How the data were processed

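Tumours were digested into single cells and sequenced with droplets of the DNBelab C system, per the labels' protocols. The authors deposited raw UMI counts, 1 whole number for each gene in each barcode, written by PISA v1.0 per the file headers, with genome build GRCm38 per the submitters' processing notes. Aligner, annotation and cell calling are not given in the sources used. Total UMIs per library were 95374838 and 125458473 for KLF2 replicates 1 and 2 and 45594544 for vector replicate 2. For vector replicate 1 only the barcodes and gene list were used.

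Members were found by the rule in the report. UMIs were summed per class and library and scaled to CPM. Ratios used a pseudocount of 10 CPM and genes of at least 30 CPM as a mean over both libraries in either class. A gene was called at 2-fold in the same direction in both KLF2 libraries. The cells were chosen by their expression, so members against others got no test. The calling step was tested on simulated data. Intervals are exact Poisson for summed counts and exact binomial for shares, at 95%. Doublets were scored with Scrublet in scanpy 1.11.5 at an expected rate of 6% and none were removed. Other tools were Python 3.11.15, numpy 2.4.6, scipy 1.17.1 and pandas 2.3.3.

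Named genes were the 5 given markers, the 15 highest and 10 lowest genes called and at 50 CPM or more (9 higher genes qualified), leaving out predicted, Rik, mitochondrial, ribosomal and haemoglobin genes, and up to 4 genes of each list with the largest ratios. The members and all 37 pathway and 15 marker lists were chosen with earlier results of these data known. Of 29073 gene symbols 28351 were in GENCODE M21. Alternatives covered the limits of the rule, depth, doublets, comparison cells, scaling, pseudocount, filter and each replicate.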

Additional observations from a re-analysis of the deposited data

How the results depend on the processing

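The restriction to cells of at least 10000 UMIs and the 1.5-fold call were chosen after seeing the data. The mean share of members over both KLF2 libraries was 3.24% and became 5.39% with a sum of at least 10, 1.32% with at least 40, 6.51% with the sum alone, 2.11% in cells thinned to 2000 UMIs and 5.43% in cells of at least 10000 UMIs. Without KLF2 replicate 1 or 2 it was 2.66% or 3.82%. Against 10 genes higher and 136 lower, a sum of at least 40 gave 21 higher, thinning 28 higher and 253 lower, the others under the same limits 6 and 82, a total without Gm42418, mitochondrial and haemoglobin genes 6 higher, centring on the median of all genes 6 higher, a mean over cells 31 and 275, a pseudocount of 1 CPM 31 higher, a pseudocount of 50 CPM 1 higher (Spock2) and 28 lower, a filter of 100 CPM 52 lower, cells of at least 10000 UMIs 6 higher, and a 1.5-fold call 114 and 261. With a call in 1 library in place of both, leaving out KLF2 replicate 1 gave 43 genes higher and 243 lower, and without KLF2 replicate 2 they were 14 and 151. Beyond the construction of each alternative the cause of these moves was not tested.

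None of the 45 called named genes changed sign, whereas 5 of the other named genes did (Birc5, Ddit3, Dnajb9, Nusap1 and Ptprd), as did list medians near 0, such as that of G2 and mitosis genes. Of 643 list medians under the alternatives 449, and of 2431 gene ratios 1902, moved by less than the SD between the 2 libraries. No paired analysis was possible because no result comes from a test. Limits are 2 KLF2 libraries and 1 vector matrix, members picked by expression, deeper members than others, free RNA in all cells, and an unusable doublet call.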

Other observations

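Some genes for developmental regulators and matrix proteins were higher in members in both libraries but under 2-fold in at least 1, and all but Twist2 are named here after their values were seen. Lmo2, a cofactor of blood and vessel development, was at 617 and 696 CPM in members of KLF2 replicates 1 and 2 and at 361 and 301 CPM in others. Msx1, a homeobox factor of limb and facial mesenchyme, was at 363 and 196 CPM in members and at 184.5 and 89.9 CPM in others. Twist2, a factor of dermal and skeletal mesenchyme, was at 50.04 and 62.1 CPM in members and at 23.7 and 20.96 CPM in others, while the adhesion protein gene Islr was at 72.4 and 96.4 CPM in members and at 31.2 and 27.04 CPM in others. Gpr37, a receptor known from glia and neurons, was at 141.0 and 118 CPM in members and at 70.5 and 58.1 CPM in others.

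A pair of nuclear RNAs was lower in members. Malat1 was at 1598 and 1563 CPM in members and at 4206 and 5139 CPM in others, and Neat1 at 77.5 and 103 CPM in members and at 215 and 313 CPM in others. Both are long non-coding RNAs that stay in the nucleus, and these genes too were named after their values were seen.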
